A study of Rattus norvegicus with 46 samples.

Results

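The comparison described here is that of dexamethasone (Dex) with saline (Vehicle) in rat kidneys after 3 h of reperfusion, the earliest time at which tissue was sampled after the drug. Its members were chosen from the sample titles alone, 4 animals given Dex and 5 given Vehicle, in all 9 of the 46 arrays of the series. All were male Wister rats, as the labels spell the strain. They received Dex at 3 mg/kg or saline into the peritoneum 30 min ahead of an ischemia of the left kidney that lasted 45 min, made by clamping its artery. The right kidney was removed when the clamp was released. Animals of the 3 h groups stayed under anesthesia until the left kidney was taken, so every animal of both groups carried the operation, the ischemia, the loss of the other kidney and the anesthetics. Each array measured total RNA of kidney tissue from 1 animal. The other 37 arrays held naïve kidneys, the same 2 treatments at 24 and 120 h, and valproic acid (VPA, 150 mg/kg) at all 3 times. No group received Dex without ischemia, so the response of an uninjured kidney to the drug was not measured, and 1 dose at 1 pretreatment time was used. Values are linear array signals as deposited, and every difference is Dex minus Vehicle on the log2(signal + 16) scale, on which changes of dim probe sets are damped.

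Dexamethasone is a synthetic agonist of the glucocorticoid receptor, a nuclear receptor that waits in the cytoplasm with Hsp90 chaperones, enters the nucleus when it binds the hormone and either activates genes at palindromic response elements or restrains inflammatory transcription factors such as NF-κB and AP-1. Cells answer within hours by inducing genes such as the chaperone Fkbp5, which dampens the signal itself, and the leucine zipper protein Tsc22d3 (GILZ). In the kidney, the enzyme Hsd11b2 inactivates natural glucocorticoids in the distal nephron, and the receptor is expressed along the tubule, in glomeruli and in immune cells.

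The tissue carried the markers of kidney in every animal of both groups, as the signals of Umod (uromodulin of the thick ascending limb, 3227 to 4997), Lrp2 (megalin of the proximal tubule, 1821 to 2478) and Nphs1 (nephrin of podocytes, 79.8 to 161) show. A single Vehicle animal stood apart. The median signal of Vehicle replicate 1 was 87.5, against 64.7 to 72.4 on the other 8 arrays, and its log2 values correlated with the mean of the other Vehicle animals at r = 0.857, against 0.958 to 0.983 for each other array with its own group. Its mean over 26 tubular injury genes lay 0.77 below the Vehicle mean on the log2 scale, while the other 4 Vehicle animals lay 0.08 to 0.30 above it, and its mean over 9 red blood cell genes lay 1.2 above. Of the adrenal genes, Cyp11b1 read 579.5 in this animal and 66.2 to 124 in the other Vehicle animals. The part of these differences in the results was not tested, and several results are given with and without this animal. The median SD of a probe set was 0.23 among the Dex animals, 0.38 among the 5 Vehicle animals and 0.25 among the Vehicle animals without replicate 1.

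At 3 h, few probe sets passed the tests between Dex and Vehicle, and most of those that passed were higher with Dex. Of 14607 probe sets tested, 21 were higher (0.144%) and 4 lower (0.0274%) at 2-fold or more with an adjusted p under 0.05. Without the fold criterion, 81 (0.555%) were higher and 8 (0.0548%) were lower, and an unadjusted p under 0.05 was reached by 593 higher (4.06%) and 287 lower (1.96%). The 25 probe sets called at 2-fold stood for 23 named genes, since Tent5b had 2 probe sets and another probe set matched several genes. In 20 of the 25 no Dex animal overlapped a Vehicle animal, which over all tested probe sets was the case for 1.78% with every Dex animal higher and 0.63% with every Dex animal lower. The 25 were called on differences between these same animals, so their separation is no separate support for the calls. Without Vehicle replicate 1 the calls were 29 higher and 10 lower, of which 23 were among the original 25, and 12 of the 25 were called with each of the 9 animals left out in turn. Relt, Gal, Gata6, Amd1, Tp53inp1 and Nppc were called under all 17 alternative settings.

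**Figure D1:**
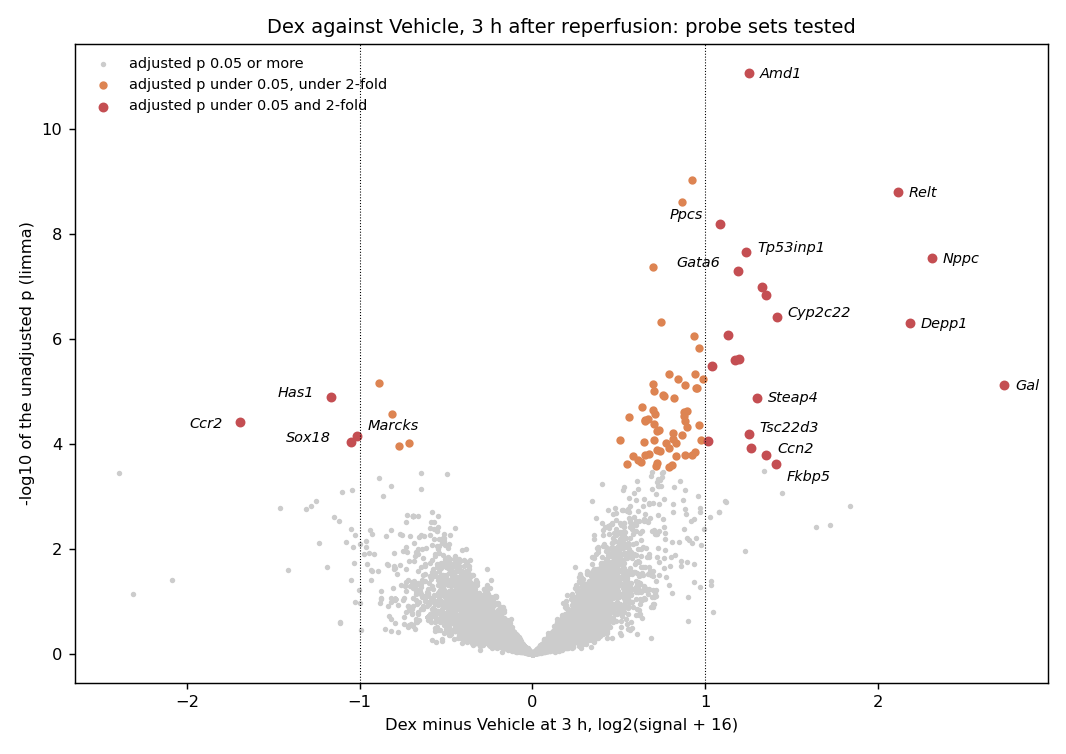
Difference between Dex and Vehicle at 3 h (x axis, log2) against the unadjusted p of limma (y axis, −log10) for the 14607 tested probe sets, with part of the called genes named. The 21 probe sets called higher lie on the right and the 4 called lower, Ccr2, Has1, Sox18 and Marcks, on the left.

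Of the 4 largest rises, 3 were in secreted peptides and a receptor of the tumor necrosis factor family. Gal encodes galanin, a neuropeptide that acts on G protein-coupled receptors. Its signal (probe set 10727321) was 139, 137, 322 and 304 in the Dex animals and 47.6, 6.4, 10.9, 17.5 and 18.4 in the Vehicle animals. The lowest Dex value was above the highest Vehicle value, that of replicate 1, and the other Vehicle animals were in the range of naïve kidneys (5.45 to 14.2) or just above it. The difference was 2.73 ± 0.53 (SE), a 6.65-fold rise on this scale (adjusted p = 0.0039), and 2.96 without Vehicle replicate 1. None of the galanin receptors passed the test, with differences of -0.28 for Galr1, -0.11 for Galr2 and 0.02 for Galr3.

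Nppc encodes C-type natriuretic peptide, the ligand of the guanylyl cyclase receptor Npr2 and of the clearance receptor Npr3. It (probe set 10929606) read 332, 347, 163 and 306 in the Dex animals against 31.4, 56.4, 39.4, 60.6 and 32.1 in the Vehicle animals. The groups lay far apart although Dex replicate 3 was well below the other Dex animals. The difference was 2.31 ± 0.34, or 4.97-fold (adjusted p = 5.9e-05). Among the receptors the differences were 0.22 for Npr2, -0.09 for Npr3 and -0.40 for Npr1, the receptor of the atrial and brain peptides, and none passed the test. Nppa and Nppb, which encode those peptides, were not among the tested probe sets and differed by 0.19 and 0.23. Of 40 listed peptide hormones, neuropeptides and their close relatives, 37 were measured and 23 tested, and Gal and Nppc were the 2 that were called, both at 2-fold, against 0.144% of all probe sets. This list, like the others, was written with earlier results of these data known, so such counts are not independent evidence. The median over the 37 was 0.05, beside 0.01 over all 17245 genes measured. Edn1, which encodes the vasoconstrictor endothelin-1, was higher in every Dex animal (268 to 374) than in any Vehicle animal (122 to 239), with a difference of 0.96 that did not pass (adjusted p = 0.12).

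Relt encodes a member of the tumor necrosis factor receptor superfamily found mainly in hematopoietic tissue. Its signal (probe set 10724001) was 118, 135, 211 and 220.1 in the Dex animals and 22.4, 28.8, 34.5, 22.6 and 22.4 in the Vehicle animals. The Vehicle animals varied little, and every Dex animal was well above them. The difference was 2.12 ± 0.27, or 4.33-fold (adjusted p = 7.6e-06).

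**Figure D2:**
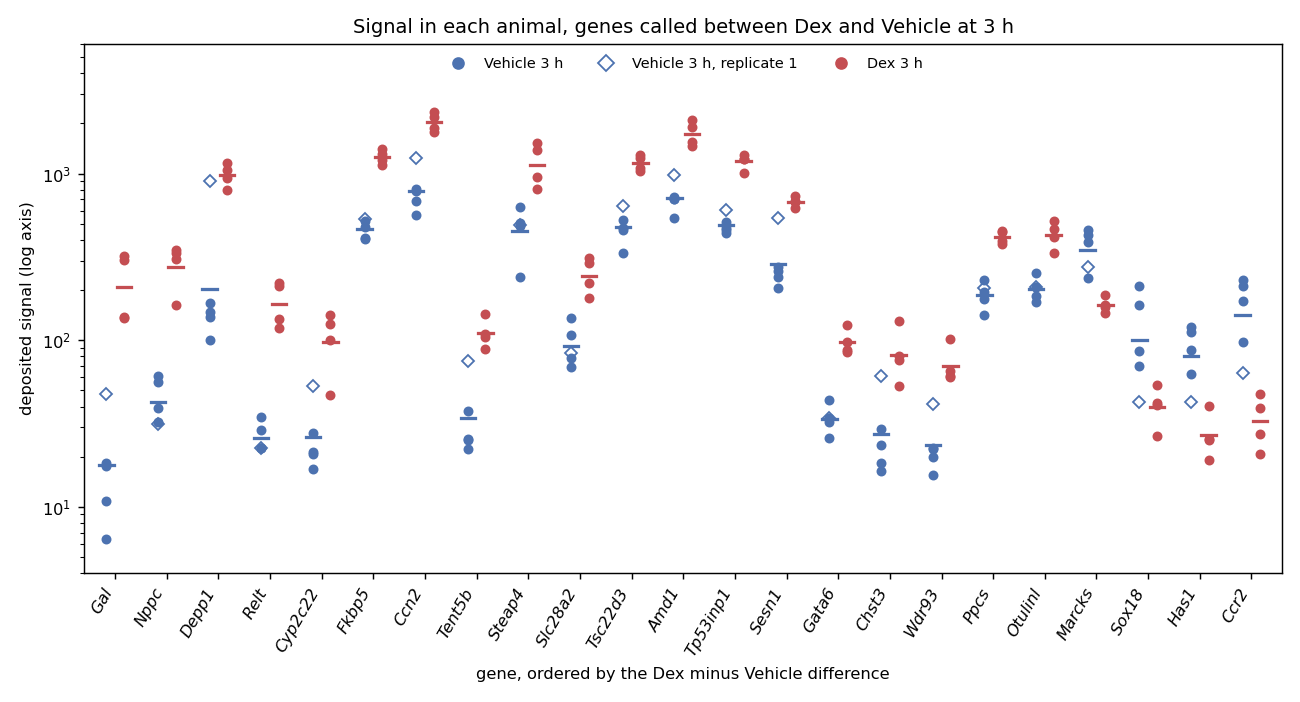
Signal of each Dex and Vehicle animal at 3 h (log axis) for the 23 named genes called at 2-fold, with points for animals and bars for group means on the log2(signal + 16) scale. Vehicle replicate 1 is drawn as an open symbol, and for Depp1 it lies at 901, among the Dex animals, while the other Vehicle animals lie between 101 and 168.

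Several of the called genes encode enzymes or transporters. Amd1, S-adenosylmethionine decarboxylase, makes the aminopropyl donor for the polyamines spermidine and spermine, and it had the smallest p of the tested probe sets. Its signal (probe set 10833659) was 1554, 1456, 1901 and 2085 in the Dex animals and 986, 539.7, 702, 721 and 702 in the Vehicle animals, with naïve kidneys at 673 to 815. Every Dex animal was higher than every Vehicle or naïve animal. The difference was 1.25 ± 0.13, or 2.38-fold (adjusted p = 1.2e-07). Other enzymes of polyamine metabolism did not pass: Odc1 (ornithine decarboxylase) differed by 0.26, Srm (spermidine synthase) by 0.15 and Sat1 (the catabolic acetyltransferase) by 0.03, and Sms (spermine synthase), at 0.11, was not among the tested probe sets.

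Ppcs, an enzyme of coenzyme A synthesis, read 378 to 453 in the Dex and 142 to 229 in the Vehicle animals, a difference of 1.09 (adjusted p = 1.9e-05). Steap4, a metalloreductase of iron and copper, read 811 to 1527 against 240.0 to 629, a difference of 1.30 (adjusted p = 0.0054). Neither gene had overlapping groups. Steap4 missed the threshold without Dex replicate 2 or 4 (adjusted p up to 0.053), and Ppcs came to 0.997, just under 2-fold, without Vehicle replicate 2. Slc28a2, a sodium-coupled nucleoside transporter, read 179 to 313 against 68.8 to 136 (1.26, adjusted p = 0.024), and it was called in 3 of 9 fits with an animal left out. The call was lost without Dex replicate 2, 3 or 4 or Vehicle replicate 1, 2 or 4, with adjusted p up to 0.15. For Cyp2c22, a cytochrome P450, and Chst3, a sulfotransferase of chondroitin chains, Vehicle replicate 1 overlapped the Dex animals. Cyp2c22 read 47.1 to 141 in the Dex animals, 53.4 in Vehicle replicate 1 and 16.8 to 27.9 in the other Vehicle animals (1.42, and 1.59 without replicate 1). Chst3 read 53 to 131, 60.7 and 16.4 to 29.1 in the same order (1.17, 1.38 without replicate 1, and 0.97, under 2-fold, without Dex replicate 4).

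Depp1, Tp53inp1 and Sesn1 were also higher. Depp1 is a target of FOXO transcription factors that takes part in autophagy. Its signal (probe set 10858160) was 792, 1166, 936 and 1054 in the Dex animals and 901, 101, 138, 147 and 168 in the Vehicle animals. Vehicle replicate 1 thus read like a Dex animal, and the other Vehicle animals were far below. The difference was 2.19 ± 0.37 with all animals (4.55-fold, adjusted p = 0.00051) and 2.70 without that replicate. Tp53inp1, a p53-inducible nuclear protein of autophagy, read 1005, 1230.4, 1299.9 and 1221 against 602, 469, 442, 456 and 511. The groups did not overlap, and the difference was 1.24 ± 0.18 (adjusted p = 5.4e-05). Sesn1, a sestrin that restrains mTORC1 when leucine is scarce, read 676, 618, 684 and 732 against 544, 259, 240.2, 274 and 205. Vehicle replicate 1 was the nearest to the Dex animals, and the difference was 1.19 ± 0.22 (adjusted p = 0.0019), or 1.42 without it.

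Among genes that passed with no fold threshold, chosen here after their values were seen, Foxo3, a FOXO transcription factor, differed by 0.71, Pik3ip1, an inhibitor of phosphoinositide 3-kinase, by 0.88 and Castor2, a relative of the arginine sensor of mTORC1, by 0.82. Cblb, a ubiquitin ligase that limits receptor signaling, differed by 0.70. Edem1, a lectin of protein degradation in the endoplasmic reticulum, was higher by 0.86 and Ern1, the stress sensor IRE1 of the same organelle, by 0.70. The listed genes of the integrated stress and unfolded protein responses as a whole did not pass: of 20 measured and 17 tested none was called, with a median of 0.16, or 0.06 without Vehicle replicate 1.

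The remaining genes called higher have diverse roles. Gata6, a zinc finger transcription factor of endoderm and vascular smooth muscle, read 84.7, 87.9, 97.4 and 123 against 34.1, 25.8, 32.2, 34 and 43.8, and the groups were well separated. The difference was 1.19 ± 0.18 (adjusted p = 8.2e-05). Ccn2, the matricellular protein also known as connective tissue growth factor, read 1766 to 2353 against 564 to 1236 (1.36, adjusted p = 0.030). It was called in 7 of 17 alternative settings, and of the 9 fits with an animal left out only in that without Vehicle replicate 1, with adjusted p up to 0.16. Tent5b, of a family of poly(A) polymerases, was called through both probe sets, with differences of 1.33 and 1.35, and Vehicle replicate 1 was its highest Vehicle animal on both (74.6 and 61.7). Otulinl, a relative of the deubiquitinase OTULIN, differed by 1.02 and was called in 4 of 9 fits with an animal left out (0.93 to 1.13, adjusted p up to 0.16), losing the call without Dex replicate 1, 3 or 4 or Vehicle replicate 3 or 5. Wdr93, a WD repeat protein, differed by 1.13, and by 0.99, under 2-fold, without Dex replicate 3.

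Most known glucocorticoid targets had positive differences, and few passed singly. Fkbp5, a co-chaperone of Hsp90 that lowers the affinity of the receptor for its hormone, read (probe set 10831940) 1212, 1133, 1413 and 1311 in the Dex animals and 534, 404, 479, 409 and 516 in the Vehicle animals. The groups were apart by more than the range of either. The difference was 1.41 ± 0.35 (2.66-fold, adjusted p = 0.042), and it missed the threshold with any 1 of the 9 animals left out, with adjusted p of 0.053 to 0.16. Fkbp5 varied more in other groups of the fit, from 143 to 1056 among Vehicle animals at 120 h, which enters its SE. Tsc22d3, the leucine zipper protein GILZ that binds NF-κB and AP-1, read (probe set 10939516) 1043, 1239, 1075 and 1294 against 635, 527, 336, 459 and 473. Again no animal overlapped, and the difference was 1.25 ± 0.28 (2.38-fold, adjusted p = 0.017). It missed the threshold without Dex replicate 2 or 4 or Vehicle replicate 3, with adjusted p up to 0.10.

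Of 37 listed glucocorticoid-induced genes, 33 were measured and 30 tested. At 2-fold 2 were called higher, against 0.144% of all probe sets. With no fold threshold 4 were higher, against 0.555% of all probe sets, or 70 of the 8924 genes tested with 1 probe set each. Added were Fam107a, a stress-induced actin-binding protein (390.1 to 484 against 170.0 to 337, difference 0.92), and Nfkbia, the inhibitor IκBα of NF-κB (1101 to 1184 against 593 to 710.3, difference 0.79). Without Vehicle replicate 1 the 4 became 2, Tsc22d3 and Fam107a, with adjusted p of 0.053 for Fkbp5 and 0.054 for Nfkbia. An unadjusted p under 0.05 was reached by 16, all higher, against 4.06% of all probe sets. Of the 33 differences 32 were above 0, against 9121 of 17245 over all genes. The median was 0.50, and 0.48 without Vehicle replicate 1, beside 0.01 and 0.03 over all genes. Mean log2 scores over the list, relative to the Vehicle mean, were 0.49 to 0.61 in the Dex animals and -0.08 to 0.10 in the Vehicle animals, and Vehicle replicate 1 was at -0.08.

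Several of the best known targets were apart between the groups and yet did not pass. Zbtb16, the zinc finger protein PLZF, read 820.0, 730.0, 744 and 800.0 against 233, 283, 157, 243 and 218. No animal overlapped, and the difference was 1.72 ± 0.56 (adjusted p = 0.26), or 1.72 with an adjusted p of 0.0025 when only these 9 arrays were fitted. That smaller fit kept 11 of the 25 calls at 2-fold. Per1, a clock gene with a response element of the receptor, read 1465, 1392, 1709 and 1367 against 855, 968, 650.2, 1166 and 653 (0.81 ± 0.29, adjusted p = 0.38). Sgk1, the kinase that activates sodium transport, and Klf9, a Krüppel-like factor, also had no overlap (0.56 and 0.50), whereas Dusp1, a phosphatase of MAP kinases, overlapped (0.33). The receptor gene Nr3c1 differed by -0.29, with a 95% interval of -0.60 to 0.02, and was not among the tested probe sets. Hsd11b2 differed by -0.02, with an interval of -0.46 to 0.41.

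**Figure D3:**
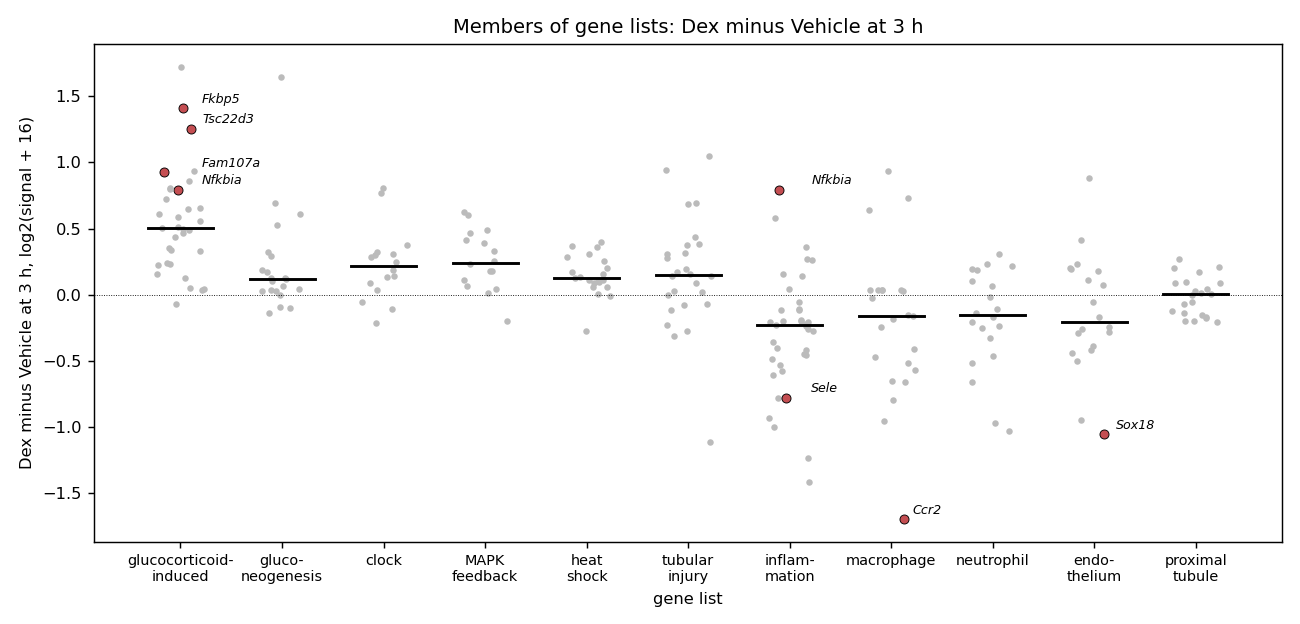
Difference between Dex and Vehicle at 3 h (y axis, log2) of each measured member of 11 gene lists (points) with the list median (bar), and in red the named members with an adjusted p under 0.05. The glucocorticoid-induced genes, with a median of 0.50, lie above 0 but for 1 member, and the inflammation genes have a median of -0.22.

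The window from 250 bases before to 50 bases after each gene start (RefSeq, GRCr8) was searched on both strands for the core of the glucocorticoid response element, GNACANNNTGTNC, and for 1 arm of it, AGAACA or its complement TGTTCT, which can overlap the core. Of 19 genes called higher 18 had a window, and none held the core and 4 held the arm (22.2%). Over all 27457 windows, 116 held the core (0.422%) and 5509 the arm (20.1%), and over the 7322 windows of genes tested on the array 26 held the core (0.355%) and 1145 the arm (15.6%). Of 60 genes higher with no fold threshold 1 held the core, Fam107a (1.67%), and of 28 glucocorticoid-induced genes 2 did, Fam107a and Map3k6 (7.14%), while 4 of the 28 held the arm (14.3%). Map3k6 is a kinase gene with a difference of 0.65 (adjusted p = 0.90). A match in these letters is a description and not a binding site. The 250 bases before the start are shown for Fam107a, which held the core, and for Gal and Relt, among the strongest rises, which held the arm. Capitals mark the core with the arm that overlaps it in Fam107a, where the core begins 210 bases before the start, and the arm in the others. Fam107a lies at chr15:19046331-19046580 on the plus strand, Gal at chr1:210084573-210084822 and Relt at chr1:164626280-164626529, both on the minus strand.
Fam107a: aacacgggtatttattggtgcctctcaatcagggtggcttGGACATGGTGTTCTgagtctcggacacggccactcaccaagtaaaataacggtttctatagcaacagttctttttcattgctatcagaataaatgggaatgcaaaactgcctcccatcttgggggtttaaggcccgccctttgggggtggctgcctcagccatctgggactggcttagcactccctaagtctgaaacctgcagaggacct
Gal: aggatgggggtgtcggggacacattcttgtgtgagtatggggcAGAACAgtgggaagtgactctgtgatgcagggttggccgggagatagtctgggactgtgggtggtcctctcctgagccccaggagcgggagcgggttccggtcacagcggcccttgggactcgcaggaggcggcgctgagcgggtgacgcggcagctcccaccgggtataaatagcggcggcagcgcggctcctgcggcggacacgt
Relt: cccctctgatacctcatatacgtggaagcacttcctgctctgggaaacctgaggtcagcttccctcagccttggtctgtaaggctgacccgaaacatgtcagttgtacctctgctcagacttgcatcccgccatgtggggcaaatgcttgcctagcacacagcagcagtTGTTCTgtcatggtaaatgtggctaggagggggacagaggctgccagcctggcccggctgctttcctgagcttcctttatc

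The genes called lower were a monocyte receptor, a matrix enzyme and 2 genes expressed in many cells or in vessels. Ccr2 is the receptor through which the chemokine Ccl2 draws monocytes into tissue. Its signal (probe set 10914614) was 20.8, 27.4, 39.4 and 47.6 in the Dex animals and 63.9, 213, 173, 97.2 and 231 in the Vehicle animals. Every Dex animal was below every Vehicle animal, and also below the naïve range of 61.5 to 69.6. The difference was -1.69 ± 0.37, 3.23-fold lower (adjusted p = 0.011), and -1.94 without Vehicle replicate 1. It was called in 6 of 9 fits with an animal left out, and missed the threshold without Dex replicate 1 or 2 or Vehicle replicate 5, with adjusted p up to 0.065. In whole tissue, fewer cells of a type and less RNA per cell cannot be told apart. Of 25 listed macrophage markers 23 were measured and tested and Ccr2 was the 1 that was called, against 0.0274% of all probe sets lower at 2-fold, while Cx3cr1, the fractalkine receptor, differed by -0.96, Csf1r, the growth factor receptor, by -0.02, the complement genes C1qb and C1qc by 0.73 and 0.64, and the mannose receptor Mrc1 by 0.93. The list median was -0.16, with 14 differences below 0 and 9 above. At an unadjusted p under 0.05 (limma) 4 were lower and 3 higher, against 1.96% and 4.06% of all probe sets. The lower were Ccr2, Cx3cr1, Itgax (-0.80) and Tyrobp (-0.65), and the higher were Mrc1, C1qb and C1qc. Scores were -0.58 to 0.03 in the Dex animals and -0.36 to 0.51 in the Vehicle animals. The part of these markers in the difference of Ccr2 was not tested.

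Has1, a synthase of the matrix polysaccharide hyaluronan, read (probe set 10718344) 19, 40.1, 25.3 and 25.6 against 42.3, 86.7, 113, 62.5 and 119. The groups did not overlap, though the highest Dex and the lowest Vehicle animal were close. The difference was -1.16 ± 0.23, 2.24-fold lower (adjusted p = 0.0054). Has1 was called in 14 of 17 alternative settings, among them all 9 fits with an animal left out. Its relative Has2 differed by 0.09. Marcks, a substrate of protein kinase C that binds actin and membranes, read (probe set 10833588) 146, 157, 188 and 162 against 276, 388, 426, 235 and 459.7. There was no overlap, and the difference was -1.02 ± 0.23 (adjusted p = 0.018), close to the 2-fold limit. It was called in 8 of 17 alternative settings and in 3 of 9 fits with an animal left out, where the difference ranged from -1.15 to -0.92 and the adjusted p up to 0.077. The call was lost without Dex replicate 1, 2 or 4 or Vehicle replicate 2, 3 or 5.

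Sox18, a transcription factor of endothelium, read (probe set 10852595) 41, 41.8, 26.4 and 53.6 against 42.4, 86, 213, 69.6 and 162. Vehicle replicate 1 overlapped the Dex animals, and the difference was -1.05 ± 0.24 (adjusted p = 0.021), or -1.30 without it. It was called in 4 of 9 fits with an animal left out, with differences up to -0.81 and adjusted p up to 0.16, and lost the call without Dex replicate 1, 2 or 3 or Vehicle replicate 3 or 5. Of 23 listed endothelial genes 20 were measured and 15 tested, and Sox18 was the 1 called, against 0.0274% of all probe sets lower at 2-fold. The median was -0.21, with scores of -0.27 to -0.01 in the Dex and -0.27 to 0.26 in the Vehicle animals. The members went both ways, 12 below 0 and 8 above. An unadjusted p under 0.05 was reached by 4 lower and 2 higher, against 1.96% and 4.06% of all probe sets. The 2 higher were Ehd3 (0.88, adjusted p = 0.096 by limma) and Tek (0.41). Cdh5, the adhesion protein VE-cadherin, differed by -0.28 and was not among the tested probe sets. The part of these markers was not tested. Other genes of vessels passed with no fold threshold: Dll4, a Notch ligand, differed by -0.89, Sele, the adhesion molecule E-selectin, by -0.78, and Klf2, an endothelial transcription factor, by 0.74. Sele missed the threshold without Vehicle replicate 1, its highest animal at 93 (adjusted p = 0.10).

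Inflammation genes had mostly negative differences that did not pass one by one. Of 40 listed cytokines, chemokines, adhesion molecules and regulators, 37 were measured and 34 tested, with Nfkbia higher and Sele lower with no fold threshold, against 0.555% and 0.0548% of all probe sets. An unadjusted p under 0.05 was reached by 7 lower and 1 higher, against 1.96% and 4.06% of all probe sets. The median was -0.22, and -0.43 without Vehicle replicate 1, whose score over the list lay 0.59 below the Vehicle mean. Of the 37 differences 29 were below 0, against 8124 of 17245 over all genes. Il6, interleukin-6, read 48.1, 57.5, 67.7 and 39.1 in the Dex animals and 17.8, 222, 110.4, 116 and 151 in the Vehicle animals. All Dex animals were below the last 4 Vehicle animals and above replicate 1. The difference was -0.78 ± 0.35 (adjusted p = 0.70) with all animals and -1.23 (adjusted p = 0.028) without that replicate.

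The same animal was the lowest Vehicle value of the chemokine Ccl2 (302 against 1437 to 2886 in the others, with Dex animals at 231.0 to 935). Ccl2 differed by -1.42 ± 0.61 (adjusted p = 0.66), and by -1.94 (adjusted p = 0.16) without it. Selp, the adhesion molecule P-selectin, differed by -1.24 (adjusted p = 0.38) with all animals and by -1.68 (adjusted p = 0.038) without replicate 1. Il1b, interleukin-1β, differed by -0.997 (adjusted p = 0.39) and Tnf by -0.11 with a 95% interval of -0.55 to 0.32. Without replicate 1 these 2 genes differed by -1.29 (limma, adjusted p = 0.084) and -0.22. Inhba, a subunit of activin A, was below every Vehicle animal in every Dex animal (6.58 to 24.5 against 35.5 to 94.5) without passing (-1.28, adjusted p = 0.16). The 17 neutrophil markers tested held no call, with a median of -0.15 over 20 measured. An unadjusted p under 0.05 was reached by 4 of them, all lower, against 1.96% of all probe sets. They were the calgranulins S100a8 (-0.46) and S100a9 (-1.03), the receptor Csf3r (-0.66) and the collagenase Mmp8 (-0.97). S100a8 was dim, with a mean signal near the offset of 16 in the Vehicle animals and below it in the Dex animals. The 20 measured markers went both ways, 13 below 0 and 7 above. Scores over the neutrophil list were -0.24 to -0.14 in the Dex animals and -0.32 to 0.19 in the Vehicle animals, and their part in the inflammation genes was not tested.

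Of the differences over 2-fold that reached an unadjusted p under 0.05 but no adjusted call, Fcnb was the largest. It encodes a ficolin, a lectin of innate immunity made by myeloid cells. It read 18.1, 31.9, 31.1 and 46.6 in the Dex animals and 24.1, 513, 327, 265 and 425 in the Vehicle animals. Vehicle replicate 1 alone was in the Dex range, and the difference was -2.39 ± 0.61 (adjusted p = 0.056) with it and -3.05 (adjusted p = 0.0022) without it. Apold1, a stress-induced gene of endothelium, went the other way, at 700.3 to 905 in the Dex animals, 727 in Vehicle replicate 1 and 191 to 299 in the other Vehicle animals (1.34, adjusted p = 0.053, and 1.64, adjusted p = 0.0060, without replicate 1). Glycam1, a mucin-like ligand of L-selectin, differed by 1.84 (adjusted p = 0.16) with no overlap. Dnah2, a heavy chain of axonemal dynein, differed by -1.26 and Lypd8l1 by -1.31. Ucp1, the uncoupling protein of brown fat, differed by -2.09 (adjusted p = 0.77) with 1 Dex animal at 2940 and the others at 3.49 to 10.5, and 13 adipocyte genes had scores of -1.06 to 1.08 in the Dex animals and -0.96 to 1.41 in the Vehicle animals.

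Markers of injury and of the stress response did not pass, and the errors of some were wide. Of 26 tubular injury genes tested none was called, with a median of 0.15 that became 0.0004 without Vehicle replicate 1. Havcr1, kidney injury molecule 1, read 422, 626, 728 and 660.2 in the Dex animals and 93, 490.2, 459, 396 and 724 in the Vehicle animals. The groups overlapped, and the difference was 0.69 ± 1.02, with a 95% interval of -1.38 to 2.75. Lcn2, the iron-binding lipocalin NGAL, differed by 1.05 (-0.44 to 2.53) and Timp1, an inhibitor of matrix proteases, by -0.27 (-1.36 to 0.82). Without Vehicle replicate 1 the differences were 0.24 for Havcr1, 0.83 for Lcn2 and -0.64 for Timp1. The heat shock list held no call (21 measured, median 0.13), and the small chaperone Hspb1 differed by 0.01 (-0.82 to 0.83). Atf3, a stress-induced transcription factor, differed by 0.52, Hmox1, heme oxygenase, by -0.31, Zfand2a, a heat shock target, by 0.29 and Bcl2, an inhibitor of apoptosis, by -0.18. Without Vehicle replicate 1 these were 0.30, -0.28, 0.12 and -0.32. Of 31 apoptosis genes measured and 22 tested none was called, with 19 differences above 0 and 12 below. The list median was 0.08. Its member Cdkn1a differed by 0.94 (limma, adjusted p = 0.60). Bcl2l1, not among the tested probe sets, differed by 0.45. Neither of these 2 had overlapping groups.

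The lists of fuel metabolism, the clock, MAP kinase feedback and the proximal tubule held no call. Of 18 genes of gluconeogenesis and fuel use tested none passed, with a median of 0.12. Sds, serine dehydratase, had the largest difference (1.64 ± 0.54, adjusted p = 0.27), Got1, an aspartate aminotransferase, differed by 0.69 with no overlap (adjusted p = 0.094), and Pck1, the rate-limiting enzyme of gluconeogenesis, by 0.04. The clock list had a median of 0.22 (0.09 without Vehicle replicate 1) and no call, with Dbp at -0.22 and Bmal1 at 0.31. The MAP kinase phosphatases and Sprouty proteins had a median of 0.24, which fell to 0.08 without that replicate. Proximal tubule markers had a median of 0.00 over 22 genes.

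The calls at 3 h were then followed in the other animals studied at later times. At 24 h, 17 probe sets were called between Dex and Vehicle in either direction (0.116%). At 120 h there were 0 by limma, with 892 of the 14607 tested at an unadjusted p under 0.05, beside 880 at 3 h. Of the 21 probe sets called higher at 3 h, 15 had a difference above 0 at 24 h and 10 at 120 h. The share of all probe sets above 0 at those times was not counted. The median of the 21 was 1.26 at 3 h, 0.31 at 24 h and -0.03 at 120 h. The 21 were chosen for a 2-fold difference at 3 h alone, so these medians are no test of a change with time. Gal was the 1 that was called at 2-fold again at 24 h, with 22.2, 316, 366, 84.5 and 597 in the Dex animals and 23.9, 11.2, 10.9 and 13.5 in the Vehicle animals. Dex replicate 1 was in the Vehicle range and the other 4 above it, and the difference was 2.69 ± 0.53 (adjusted p = 0.024). Tp53inp1 was higher at 24 h with no fold threshold (0.83, adjusted p = 0.033). Fkbp5 and Tsc22d3 differed by 1.07 and 0.99 at 24 h, and neither passed (adjusted p = 0.24 and 0.16). Ccr2 and Has1 differed by -0.46 and -0.50 at 24 h.

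A test of the difference between times found 4 probe sets whose Dex effect at 3 h was larger than at 24 h (0.0274%) and 7 for which it was larger than at 120 h (0.0479%). Relt carried the largest of the first set. At 24 h it read 24.2, 13.8, 11.1, 2.6 and 15.7 in the Dex animals and 25.7, 38.6, 24.4 and 29.9 in the Vehicle animals, and the effects differed by 2.78 (adjusted p = 0.00012). Amd1 at 24 h was 573 to 634 in the Dex and 583 to 679 in the Vehicle animals, and its effects differed by 1.32 from 24 h (adjusted p = 0.00012) and by 1.17 from 120 h (adjusted p = 0.0016). Edem1 (1.02) and Ell2, an elongation factor of RNA polymerase II (0.76), also differed from 24 h. From 120 h the differences were 2.89 for Depp1, 1.62 for Cyp2c22, 1.52 for Tp53inp1, 1.40 for Tent5b, 1.19 for Cdc37l1, an Hsp90 co-chaperone of the Cdc37 family, and 0.83 for Ell2.

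**Figure D4:**
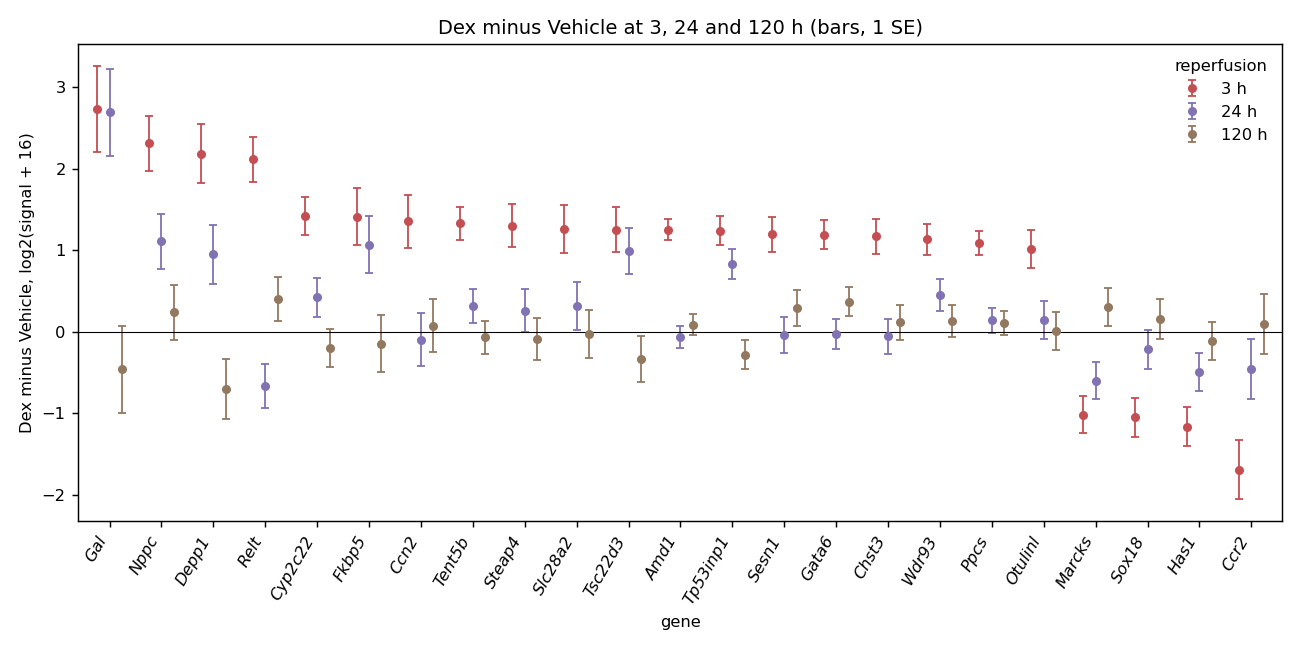
Dex minus Vehicle (y axis, log2, bars 1 SE) at 3, 24 and 120 h of reperfusion (colors) for the genes called at 3 h (x axis). Relt and Amd1 are high at 3 h and near or below 0 at 24 h, whereas Gal is at 2.73 and 2.69.

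The animals given VPA share the Vehicle group, so their values are given beside those of Dex. For Gal the 3 h VPA animals read 7.28 to 19.5, for Relt 0.08 to 22.6, for Amd1 570.1 to 815, for Nppc 27.8 to 65.1 and for Depp1 63.3 to 203. All of these lay below every Dex animal. Compared directly, Dex and VPA differed at 63 probe sets at 2-fold (0.431%), 59 of them higher with Dex. The differences of Dex from VPA were 3.02 for Gal (adjusted p = 0.00052), 2.83 for Depp1 (4.9e-06), 2.70 for Relt (3.1e-08), 2.29 for Nppc (3.6e-05), 1.28 for Amd1 (3.1e-08), 1.29 for Tsc22d3 (0.0073) and 1.12 for Fkbp5, which did not pass (0.12). The genes called lower had smaller differences between the drugs. Has1 was 12.3 to 40.0 in the VPA animals, and Dex and VPA differed by 0.01 (adjusted p = 0.996). Marcks differed by -0.16, Sox18 by -0.31 and Ccr2, at 38.3 to 112 in the VPA animals, by -0.86 (adjusted p = 0.37), and none of these passed.

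Of the genes called lower with Dex, Has1 and Ccr2 were higher in Vehicle than in naïve kidneys, and Marcks and Sox18 did not pass that test. Vehicle minus naïve was 1.8 for Has1 (adjusted p = 2.2e-07) and 0.96 for Ccr2 (adjusted p = 0.045), and Dex minus naïve was 0.64 (adjusted p = 0.049) and -0.73 (adjusted p = 0.17). For Marcks and Sox18, Vehicle minus naïve was -0.07 and -0.37, and Dex minus naïve was -1.09 (adjusted p = 0.00049) and -1.42 (adjusted p = 3.1e-05). Nppc was higher than in naïve kidneys in both groups, by 1.11 with Vehicle (adjusted p = 0.010) and by 3.43 with Dex (adjusted p = 2e-09). Relt, Amd1 and Gal did not pass between Vehicle and naïve, at 0.54, -0.01 and 0.52, and were higher with Dex by 2.65, 1.25 and 3.25. These comparisons share animals with that of Dex and Vehicle.

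**Figure D5:**
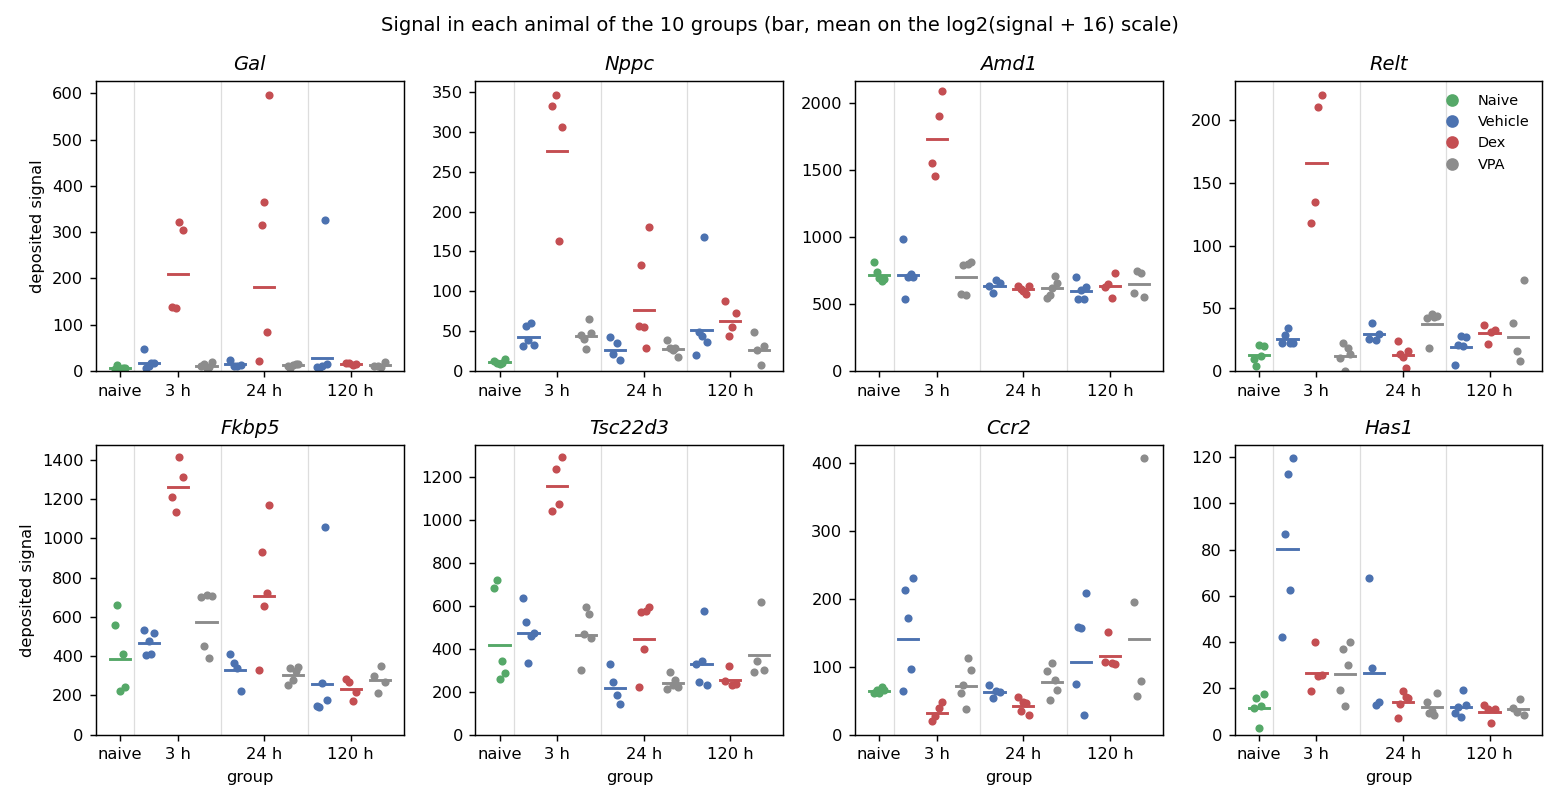
Signal of each animal (y axis, linear) for 8 genes in the 10 groups of the series, with bars for group means. Relt and Amd1 have their highest values in the Dex animals at 3 h, and for Gal the Vehicle animals at 120 h hold 1 at 326.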

How the data were processed

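RNA of 46 rat kidneys was hybridised to Affymetrix Rat Gene 1.1 ST arrays, 1 animal per array. The authors summarised the scans with iterPLIER in Affymetrix Expression Console 1.1, and the deposited table holds linear intensity values of 29214 probe sets, normalized between arrays. The methods state that arrays were excluded, while 46 were deposited, and all 46 were used. The array annotation of the methods is on the rat build rn4, no coordinates of which are used, and which arrays shared a plate was not given in the sources used here.

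After adding 16, as in the methods, signals were taken to log2, and limma 3.58.1 under R 4.3.3 fitted the 10 groups in a single model (lmFit, then eBayes), with 36 degrees of freedom from residuals and 4.44 from the prior. Following the methods, only the 14607 probe sets of higher SD entered the Benjamini-Hochberg adjustment. A call needed a change of 2-fold and an adjusted p under 0.05, and calls with no fold threshold are also given. All tests were two-sided, and SEs come from the pooled fit. The fit was tested on simulated data. By the platform annotation, 18644 probe sets carried a single symbol, 962 more than 1, and 9608 had no symbol, and each gene is read from its brightest probe set on average. Hspa1b and Nr1d1, fixed to be named, had no probe set under a single symbol.

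Named were all genes called at 2-fold, up to 4 passing members of each list, fixed glucocorticoid, inflammation, clock and injury genes, and up to 10 changes of 2-fold that passed only unadjusted. Other genes were chosen after their values were seen. Members, lists and tests were chosen with earlier results of these data known, so no list is independent evidence. List scores are means of log2 values minus the Vehicle mean. Lists hold 1 probe set per gene, while the shares given beside their counts are of all probe sets. Of 8924 genes tested with 1 probe set each, 18 were higher and 4 lower at 2-fold. With no fold threshold 70 and 7 were, and at an unadjusted p under 0.05 398 and 186. Over all 17245 genes measured, 9121 differences were above 0 and 8124 below. Alternatives were all probe sets, unmoderated variances, quantile normalization, the 9 arrays alone, an offset of 1, leaving out dim probe sets, weighting of arrays, a block for the replicate number and each animal left out. List medians without Vehicle replicate 1 were added after seeing the data. The number of arrays limits the precision. Promoter windows came from RefSeq (GRCr8).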

Additional observations from a re-analysis of the deposited data

Results flagged for a closer look

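Single animals stood apart from their group in 10 of the 114 sets of values examined, where a gap this large relative to the range is met by chance in about 1 of 20, and 5 of the 10 were Vehicle replicate 1. In that animal Depp1 read 901 (others 101 to 168), Hsd11b2 1624 (920 to 999), Fcnb 24.1 (265 to 513), Zfand2a 1351 (2321 to 2457) and Timp1 224 (707 to 1092). Vehicle replicate 4 was low for Steap4 at 240.0 (486 to 629) and for Hmox1 at 421 (765 to 847). Among the Dex animals, replicate 3 read 163 for Nppc (306 to 347) and 101 for Wdr93 (60 to 65.2), and replicate 1 read 2940 for Ucp1 (3.49 to 10.5). No cause was tested for any of these.

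The effect of Dex differed between 3 and 24 h, by the interaction test of the limma fit, for Relt by 2.78, Amd1 by 1.32, Edem1 by 1.02 and Ell2 by 0.76 on the log2 scale. Between 3 and 120 h it differed for Depp1 by 2.89, Cyp2c22 by 1.62, Tp53inp1 by 1.52, Tent5b by 1.40, Cdc37l1 by 1.19, Amd1 by 1.17 and Ell2 by 0.83. The animals of each time are different animals.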

How the results depend on the processing

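Calls at 2-fold (21 higher, 4 lower in the fit reported) numbered 13 and 1 when only the 9 arrays of these groups were fitted and 37 and 23 with array weights, and the calls with no fold threshold (81 and 8) numbered 24 and 2, and 147 and 45. Of the 25 calls reported at 2-fold, the fit of the 9 arrays kept 11 and that with array weights 24. A pseudocount of 1 gave 8 lower at 2-fold, 40 higher with no fold threshold, 1 difference from 24 h (4 reported) and 4 from 120 h (7 reported). Those differences numbered 90 and 115 with array weights, and quantile normalization gave 8 from 24 h. With 1 animal left out, the calls ranged from 14 to 29 higher and 1 to 10 lower at 2-fold, 35 to 77 higher and 4 to 14 lower with no fold threshold, 3 to 9 from 24 h, 5 to 25 from 120 h and 42 to 73 between Dex and VPA. The highest of the first 4 and the 25 came without Vehicle replicate 1, and the 14, 35 and 42 without Dex replicate 4. The cause of these shifts was not tested.

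With the replicate number as a block, calls were 22 higher and 3 lower at 2-fold and 81 and 8 with no fold threshold, with 8 differences from 24 h, 6 from 120 h and 78 calls against VPA. Same-numbered animals did not pair (correlations of -0.27, -0.08, 0.10 and -0.40).

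Of the values of named genes under these settings, 807 kept direction and side of the threshold, 114 fell short of it, 17 newly passed and 12 changed sign, none of them for a gene that had passed. Hsd11b2 was 0.082 with array weights and Hspb1 -0.037 with quantile normalization and -0.0038 with array weights. With 1 animal left out, Dbp ranged from -0.54 to 0.089, Tnf from -0.24 to 0.12, Hsd11b2 from -0.074 to 0.13 and Hspb1 from -0.019 to 0.033. The cause was not tested.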
